A study of Mus musculus with 39 samples.

Results

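A set of 10 genes of the oligodendrocyte lineage and of its precursors was followed in neocortical nuclei that carried a green fluorescent tag and were isolated by 2 techniques, the flow sorting of nuclei called FANS and the bead capture called INTACT. The members are Olig1, Olig2, Sox10, Pdgfra, Cspg4, Gpr17, Lpar1, Gpr37, Hhip and Ptgds, 10 of the 24421 genes in each RNA-seq table, and they were listed by name and not by a threshold. Nuclei came from the neocortex of male and female mice, 13 to 16 weeks old, with the tamoxifen-dependent Arc-creERT2(TG/WT) driver and the R26-CAG-Sun1-sfGFP-Myc reporter (M/WT in some mice and M/M in others). All mice received tamoxifen 5 h before a social interaction test and were killed on the 3rd day, so driver, treatment and tissue were shared. How the sexes and the copies of the reporter were spread over the groups was not given in the sources used here. The labels name every sample as nuclei of activated neurons. The limit of the model is the driver, since the reporter marks any cell in which Arc, an immediate early gene mostly of excitatory neurons, was active while tamoxifen was present. In INTACT the tagged nuclei were captured on beads coated with an antibody against GFP, and in FANS they were sorted by flow cytometry on DNA content and fluorescence.

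Oligodendrocytes wrap axons in myelin and arise from precursor cells that keep dividing in the adult cortex. The lineage is set by basic helix-loop-helix and SRY-box transcription factors, and precursors carry growth factor receptors and proteoglycans that are lost as the cells stop dividing and switch on myelin genes. Neurons of the adult neocortex are not known for transcribing these genes at a high level, so their RNA is commonly used to recognise the lineage in brain tissue.

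Among the transcription factors, Olig1 and Olig2 lie close together on chromosome 16 (mm10). Olig1, a single-exon gene at 91269769 to 91271939 on the plus strand, promotes the maturation of precursors into myelinating cells. Olig2, at 91225550 to 91228677 on the plus strand, specifies the lineage, and 99 of its exon bases overlap the predicted gene Gm52261 on the other strand. Sox10, on chromosome 15 at 79154913 to 79164490 on the minus strand, activates myelin genes together with the Olig factors. Of the surface proteins of precursors, Pdgfra (chromosome 5, 75151322 to 75198206, plus strand) is the receptor through which platelet-derived growth factor drives precursor division. Cspg4 (chromosome 9, 56865104 to 56899870, plus strand) encodes the proteoglycan NG2 of precursors, which pericytes carry as well. Gpr17 (chromosome 18, 31942999 to 31949890, minus strand) is a G protein-coupled receptor of committed precursors, and 188 of its exon bases overlap Lims2 on the other strand. The strand of the counting was not given, so reads of these overlaps could not be assigned.

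The remaining members act on signals or lipids. Lpar1 (chromosome 4, 58435252 to 58554027, minus strand) is a receptor for lysophosphatidic acid that is found on maturing oligodendrocytes. Gpr37 (chromosome 6, 25668523 to 25689980, minus strand) is a G protein-coupled receptor that restrains the differentiation of oligodendrocytes. Hhip (chromosome 8, 79965850 to 80058060, minus strand) encodes a surface protein that binds and holds back Hedgehog ligands. Ptgds (chromosome 2, 25466709 to 25470110, minus strand) encodes the lipocalin-type prostaglandin D2 synthase, which is made by oligodendrocytes and also by the leptomeninges and the choroid plexus.

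The promoter sequences of 5 members are shown because a peak of open chromatin covered the start site in all 6 ATAC-seq libraries described below and RefSeq promoter sequence (GRCm38.p6, the same assembly as mm10) was at hand for them. Each is the 250 bases before the start site, 5′ to 3′ on the strand of the gene: chr16:91225300-91225549 on the plus strand for Olig2, and on the minus strand chr4:58553294-58553543 for Lpar1, chr6:25689981-25690230 for Gpr37, chr8:80058009-80058258 for Hhip and chr2:25469750-25469999 for Ptgds. Lpar1 has 3 curated start sites, all covered by a peak in the 6 libraries, and the one nearest the median summit of the highest peak of each library is shown. In INTACT replicate 2 the highest peak covered another start site, 58499403. Capitals mark matches on either strand to the E-box CANNTG, the kind of site that basic helix-loop-helix factors such as Olig1 and Olig2 recognise, and to the GC box GGGCGG.
Olig2: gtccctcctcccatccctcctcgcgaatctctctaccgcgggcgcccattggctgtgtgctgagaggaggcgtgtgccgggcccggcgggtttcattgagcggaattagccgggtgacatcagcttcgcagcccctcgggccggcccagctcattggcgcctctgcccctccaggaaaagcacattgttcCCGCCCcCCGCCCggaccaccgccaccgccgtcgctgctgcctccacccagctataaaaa
Lpar1: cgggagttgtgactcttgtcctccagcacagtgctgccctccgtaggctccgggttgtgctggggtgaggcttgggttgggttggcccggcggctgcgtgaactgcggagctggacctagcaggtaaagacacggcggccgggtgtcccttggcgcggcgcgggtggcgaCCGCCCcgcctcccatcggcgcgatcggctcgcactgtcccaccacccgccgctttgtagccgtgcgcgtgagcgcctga
Gpr37: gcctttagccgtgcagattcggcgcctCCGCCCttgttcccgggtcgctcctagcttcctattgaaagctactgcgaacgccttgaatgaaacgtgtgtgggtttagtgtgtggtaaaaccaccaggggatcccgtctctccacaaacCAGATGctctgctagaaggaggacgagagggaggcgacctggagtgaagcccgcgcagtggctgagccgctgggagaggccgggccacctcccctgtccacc
Hhip: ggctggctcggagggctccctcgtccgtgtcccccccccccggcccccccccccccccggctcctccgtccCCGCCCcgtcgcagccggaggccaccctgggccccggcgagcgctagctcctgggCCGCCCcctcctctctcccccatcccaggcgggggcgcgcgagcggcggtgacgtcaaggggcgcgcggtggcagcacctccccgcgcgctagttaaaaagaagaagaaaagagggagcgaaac
Ptgds: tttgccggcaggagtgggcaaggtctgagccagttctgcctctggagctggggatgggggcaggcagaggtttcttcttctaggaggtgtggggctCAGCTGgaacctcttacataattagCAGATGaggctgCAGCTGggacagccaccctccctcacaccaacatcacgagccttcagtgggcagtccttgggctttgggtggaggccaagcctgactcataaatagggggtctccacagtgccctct
Ptgds held 3 E-boxes, 2 of them CAGCTG, and no GC box, Gpr37 held 1 of each, and Olig2, Lpar1 and Hhip held 2, 1 and 2 GC boxes and no E-box in the promoters shown. Of the other Lpar1 promoters, the one at start site 58499403 held 2 E-boxes and no GC box. Of all 32851 promoters in the table, 66.2% held a CANNTG, 13.0% the CAGCTG form of it and 32.7% a GGGCGG. The GC content was 58.4% for Ptgds, 60.8% for Gpr37, 66.8% for Olig2, 70.0% for Lpar1 and 76.0% for Hhip, and the median over all promoters was 52.4%. The search also covered forms of the core that SRY-box factors bind. ACAAAG was held by 16.5% of all promoters and, among these 5, by Lpar1 in 1 place. ACAATG was held by 10.7% of all promoters and by Olig2 in 1 place. CCAAT (33.8% of all promoters) and TATAAA (12.4%) were found in Olig2, 2 and 1 times, and in none of the other 4. A match is a description of these letters and not a bound site.

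RNA-seq was done on 10000 nuclei per library in 3 batches, which the study describes as distinct biological sources, with the higher RNA integrity in batch 1. FANS and INTACT had 4 libraries each in batch 1, 7 and 4 in batch 2, and 7 and 5 in batch 3. Between 4205665 and 11028713 reads fell on genes per library. In batch 1 the INTACT libraries were deeper (8621143 to 11028713 reads) than the FANS libraries (4853224 to 6066759 reads), with no overlap. All values below are normalized read counts within a batch unless named otherwise, that is reads divided by the size factor of the library, and 1 read was worth 1.23 to 1.53 of these units in FANS and 0.661 to 0.865 in INTACT of batch 1, and 0.848 to 1.23 in the other batches. The labelled cell type was checked against marker lists of summed normalized counts. In batch 1, 11 excitatory neuron markers summed to 12407 to 12693 in FANS and 11944 to 12579 in INTACT, whereas 25 myelin and mature oligodendrocyte genes summed to 10342 to 12521 and 15964 to 16967. The label of neuronal nuclei therefore did not describe all RNA in these libraries, and fewer nuclei of a type and less RNA per nucleus cannot be told apart in bulk samples.

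Levels of the members spanned a wide range, and they were compared between genes per kilobase of exon. In the INTACT libraries of batch 1, Ptgds was highest with 469.3 ± 40.5 normalized counts per kilobase (SD, n = 4), followed by Gpr37 with 93.2 ± 2.98 and Sox10 with 33.8 ± 1.47. Olig1 stood at 28.0 ± 1.05 and Lpar1 at 22.9 ± 4.27, and the libraries of these neighbours overlapped. Olig2 (14.6 ± 2.40) and Hhip (12.7 ± 0.578) overlapped as well. The genes that mark precursors were the lowest, with 3.07 ± 0.306 for Gpr17, 1.99 ± 0.274 for Pdgfra and 1.11 ± 0.489 for Cspg4, and Pdgfra and Cspg4 overlapped. Ptgds and Gpr37 held the first and the second place and Gpr17, Pdgfra and Cspg4 the last 3 places in each of the 6 groups of libraries, and Sox10 and Olig1 exchanged places between groups.

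Cspg4 was near the limit of detection throughout. It had 1 to 17 reads per library in batch 1, 0 to 8 in batch 2 and 0 to 5 in batch 3. It was left out of the tests in batches 2 and 3, and Gpr17 in batch 3, because their mean normalized count was below 5.

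**Figure D1:**
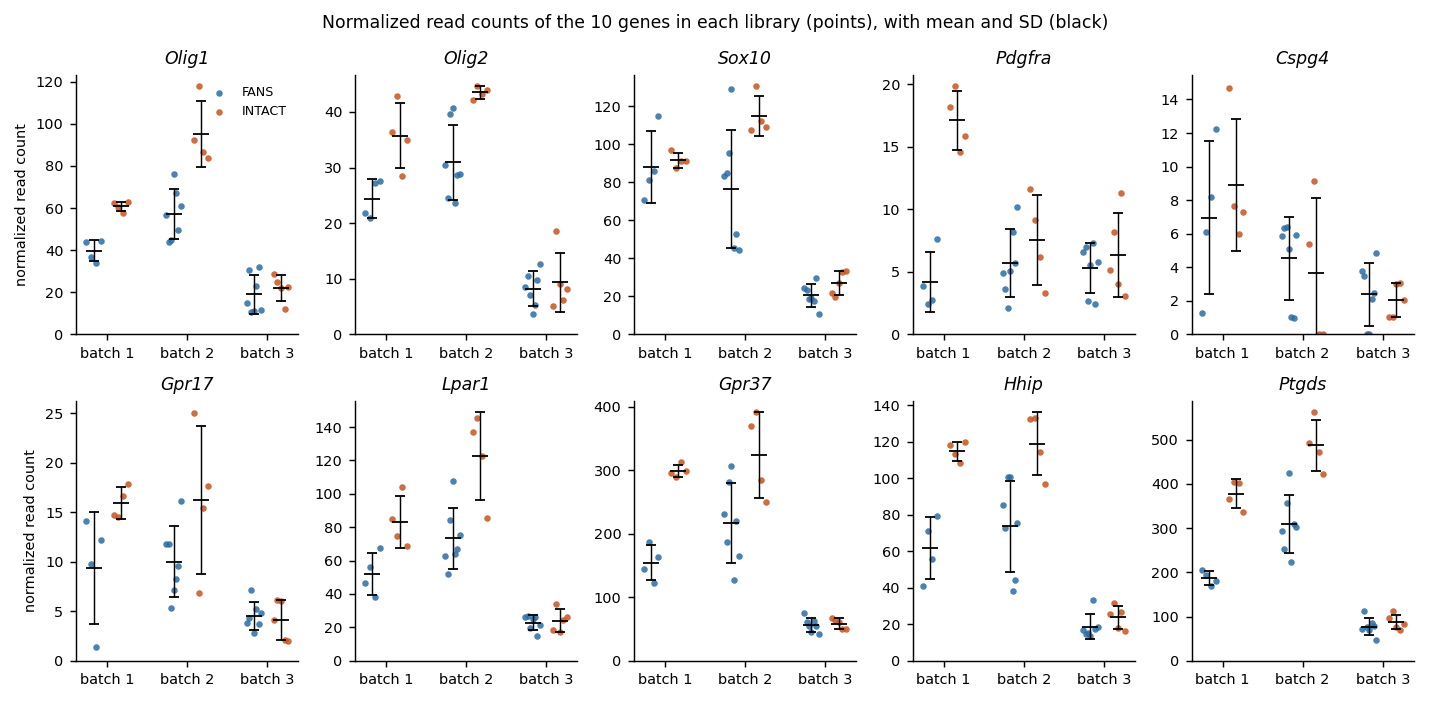
Normalized read counts of the 10 genes (y axis, from 0, a separate scale for each gene) in each library of batches 1 to 3 (x axis). Points are libraries of FANS (blue) and INTACT (orange) and black marks are the mean and SD, and in batch 1 the orange points of Olig1, Olig2, Pdgfra, Gpr17, Lpar1, Gpr37, Hhip and Ptgds all lie above the blue points.

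The first comparison asks whether the technique changed the RNA of these genes in batch 1. All 10 members had a positive log2 fold change of INTACT over FANS and 6 rose in INTACT by the test of limma (Benjamini-Hochberg adjusted p under 0.05 and at least 1.5-fold), while 0 fell. Of all 15114 genes tested, 4.03% were called higher and 3.94% lower in INTACT. The median log2 fold change was 0.80 over the 10 members and 0.0067 over all genes. In 8 of the 10 members every INTACT library lay above every FANS library, which held for 17.1% of all genes. The list was put together with results of these data known, so its direction is a description of these genes and no independent evidence.

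Ptgds had the firmest difference. Its FANS libraries stood at 204.5, 195.0, 169.0 and 180.3 and its INTACT libraries at 366.8, 404.6, 403.1 and 336.5. The groups were far apart, and the log2 fold change was 1.01 ± 0.09 (SE, adjusted p = 1.69e-09 by limma). As leptomeninges and choroid plexus also make Ptgds, their 16 markers were summed, and they reached 40.9 to 61.7 in FANS and 68.8 to 84.6 in INTACT. None of these 16 genes was at 0 in all libraries of the batch and 0 of the 4 tested were called by limma, edgeR or DESeq2, with 1 at an unadjusted p under 0.05. The part of these cells in the Ptgds difference was not tested.

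Gpr37 followed with 144.1, 187.6, 122.7 and 163.5 in FANS and 295.0, 289.9, 312.2 and 298.1 in INTACT. The INTACT libraries were close to each other and all above FANS, with a log2 fold change of 0.96 ± 0.10 (SE, adjusted p = 7.01e-08 by limma). For Hhip the FANS values were 41.2, 71.1, 55.9 and 79.5 and the INTACT values 118.5, 113.2, 108.3 and 119.7. Here too the groups did not overlap, and Hhip rose by 0.92 ± 0.16 on the log2 scale (SE, adjusted p = 6.06e-05 by limma). Lpar1 stood at 46.3, 56.4, 38.2 and 67.2 in FANS and at 84.8, 74.96, 104.3 and 68.8 in INTACT. Its highest FANS library lay just under its lowest INTACT library, and the log2 fold change was 0.68 ± 0.17 (SE, adjusted p = 0.00332 by limma). Lpar1 fell below the 1.5-fold limit without FANS replicate 3 (log2 fold change 0.54) or without INTACT replicate 3 (0.57).

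Of the transcription factors, Olig1 rose and Sox10 did not pass the test. Olig1 had 43.7, 36.8, 34.1 and 44.3 in FANS and 62.3, 60.4, 57.8 and 62.8 in INTACT. The groups did not overlap and the log2 fold change was 0.61 ± 0.17 (SE, adjusted p = 0.00512 by limma), close to the 1.5-fold limit. It fell below that limit with a pseudocount of 5 (0.56), without FANS replicate 2 (0.58) and without FANS replicate 3 (0.54). Olig2 was between 20.8 and 27.5 in FANS and between 28.6 and 42.8 in INTACT, a log2 fold change of 0.53 ± 0.22 that missed the threshold (SE, adjusted p = 0.0576 by limma) and passed it without FANS replicate 4 (adjusted p = 0.0447). Sox10 had 70.7, 80.9, 85.9 and 114.6 in FANS, a spread that enclosed the 96.9, 87.2, 91.0 and 91.2 of INTACT. The groups overlapped, and the 95% interval of its log2 fold change of 0.078 reached from -0.20 to 0.35, so the size of change seen in Ptgds or Gpr37 lay outside it.

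Among the genes of precursors, Pdgfra had the largest fold change of the members. It stood at 3.86, 2.45, 2.73 and 7.64 in FANS and at 18.2, 19.9, 14.6 and 15.9 in INTACT. These values rest on 2 to 5 reads per FANS library and on 21 to 26 reads per INTACT library, and the log2 fold change was 1.90 ± 0.38 (SE, adjusted p = 0.000332 by limma). Which cells gave the reads of Pdgfra was not tested. Gpr17 had 14.2, 9.81, 1.36 and 12.2 in FANS and 14.7, 14.5, 16.6 and 17.9 in INTACT. The INTACT values lay just above the highest FANS value, and the log2 fold change of 1.00 ± 0.44 missed the threshold (SE, adjusted p = 0.0783 by limma). It passed without FANS replicate 1 (adjusted p = 0.0351) or replicate 4 (adjusted p = 0.0363). Without FANS replicate 3, which held 1 read, the log2 fold change was 0.38 (adjusted p = 0.364 by limma). Cspg4 overlapped between 1.29 to 12.2 in FANS and 5.98 to 14.7 in INTACT (log2 fold change 0.50 ± 0.48, SE, adjusted p = 0.455 by limma).

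In batch 2, with the lower RNA integrity, 9 members were tested and all 9 had a positive log2 fold change. Cspg4, which was not tested, had a mean of 4.53 in FANS and 3.63 in INTACT. Olig1, Lpar1 and Ptgds rose in INTACT and 0 members fell, whereas 0.0941% of 14876 genes tested were called higher and 0.0336% lower. The 3 members were among 14 genes called higher. The median log2 fold change was 0.67 over the members tested and -0.00080 over all genes. In 2 of the 9 members, Olig1 and Olig2, every INTACT library lay above every FANS library, which held for 1.59% of all genes.

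Olig1 ranged from 43.7 to 76.2 in the 7 FANS libraries (median 56.9) and stood at 92.1, 118.0, 86.4 and 83.6 in INTACT. The log2 fold change was 0.74 ± 0.15 (SE, adjusted p = 0.0149 by limma). Lpar1 ranged from 51.9 to 107.7 in FANS (median 67.0) and stood at 136.9, 145.4, 122.5 and 85.8 in INTACT. Here INTACT replicate 4 lay inside the range of FANS, and the log2 fold change was 0.74 ± 0.16 (SE, adjusted p = 0.0188 by limma). Ptgds ranged from 223.3 to 423.7 in FANS (median 303.7) and stood at 492.9, 562.2, 471.3 and 422.4 in INTACT. Its lowest INTACT library lay just under its highest FANS library, and the log2 fold change was 0.67 ± 0.11 (SE, adjusted p = 0.00340 by limma). The markers of leptomeninges and choroid plexus summed to 41.2 to 88.4 in FANS and to 84.4 to 97.4 in INTACT, where Ttr, a choroid plexus transcript, was the called gene with a log2 fold change of 2.46 ± 0.34 (SE, adjusted p = 0.000884 by limma). Of the 6 genes of this list tested, 3 were positive and the median log2 fold change was 0.081. Their part in the Ptgds difference was not tested.

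Gpr37 and Hhip lay just outside the threshold of limma, and the tools differed on them. Gpr37 had 127.6 to 306.9 in FANS (median 220.1) and 249.7 to 391.6 in INTACT (log2 fold change 0.61 ± 0.16, SE, adjusted p = 0.0538 by limma). Hhip had 38.1 to 100.6 in FANS (median 75.5) and 96.8 to 132.8 in INTACT (log2 fold change 0.75 ± 0.20, SE, adjusted p = 0.0536 by limma). By edgeR Hhip was called (adjusted p = 0.0419) and Gpr37 stayed under the 1.5-fold limit (adjusted p = 0.0426), and by DESeq2 neither passed (adjusted p = 0.178 and 0.240). With Olig1, Lpar1 and Ptgds called by each tool, edgeR called 4 members and DESeq2 3. Sox10 overlapped between the techniques, with 129.1 as the highest FANS and 107.4 as the lowest INTACT library, and its log2 fold change was 0.68 ± 0.20 (SE, adjusted p = 0.0879 by limma, 0.11 by edgeR and 0.379 by DESeq2). Olig2 was at 23.7 to 40.7 in FANS and 42.1 to 44.7 in INTACT, 0.50 ± 0.18 on the log2 scale (SE, adjusted p = 0.146 by limma). Pdgfra, with 2 to 12 reads in FANS and 3 to 13 in INTACT, had a log2 fold change of 0.35 with a 95% interval from -0.44 to 1.13, and Gpr17 had 0.59 with an interval from -0.046 to 1.23.

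The calls of batch 2 depended on single libraries. Without INTACT replicate 1 or without INTACT replicate 2 the count of members called fell from 3 to 1, which was Ptgds. Without FANS replicate 4 it was 5, with Gpr37 and Hhip added, and without FANS replicate 5 it was 6, with Sox10 added as well. Lpar1 also lost its call without INTACT replicate 3 (adjusted p = 0.0518 by limma) and without a filter on low values (adjusted p = 0.0547 by limma). With a replicate block Olig1, Lpar1 and Ptgds all lost their calls (adjusted p = 0.0754, 0.142 and 0.0629 by limma).

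In batch 3, 8 members were tested and 0 were called by limma, with 0 at an unadjusted p under 0.05 and 0 called by edgeR and by DESeq2. Of all 14440 genes tested, 0.0139% were called higher and 0.346% lower in INTACT. Gpr17 and Cspg4, which were not tested, had lower means in INTACT, at 4.08 and 2.04 against 4.55 and 2.39 in FANS. All 8 log2 fold changes of the members tested were positive, with a median of 0.18 over these members and -0.0044 over all genes. In 0 of the 8 members did every INTACT library lie above every FANS library, which held for 0.997% of all genes. The largest was Sox10, with 10.7 to 29.5 in FANS (median 19.3) and 21.6, 19.5, 27.1, 32.9 and 33.5 in INTACT, a log2 fold change of 0.39 with a 95% interval from -0.048 to 0.83. Ptgds stood at 46.6 to 113.3 in FANS (median 75.9) and at 95.7, 112.1, 77.2, 68.8 and 84.2 in INTACT, and its interval for the log2 fold change of 0.20 was -0.11 to 0.50. For Gpr37 the interval was -0.23 to 0.34 around 0.057. The intervals of Ptgds and Gpr37 leave out their log2 fold changes of batch 1. The markers of leptomeninges and choroid plexus, which stood higher in INTACT in the other batches, summed to 26.8 to 52.3 in FANS and 20.6 to 29.4 in INTACT.

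**Figure D2:**
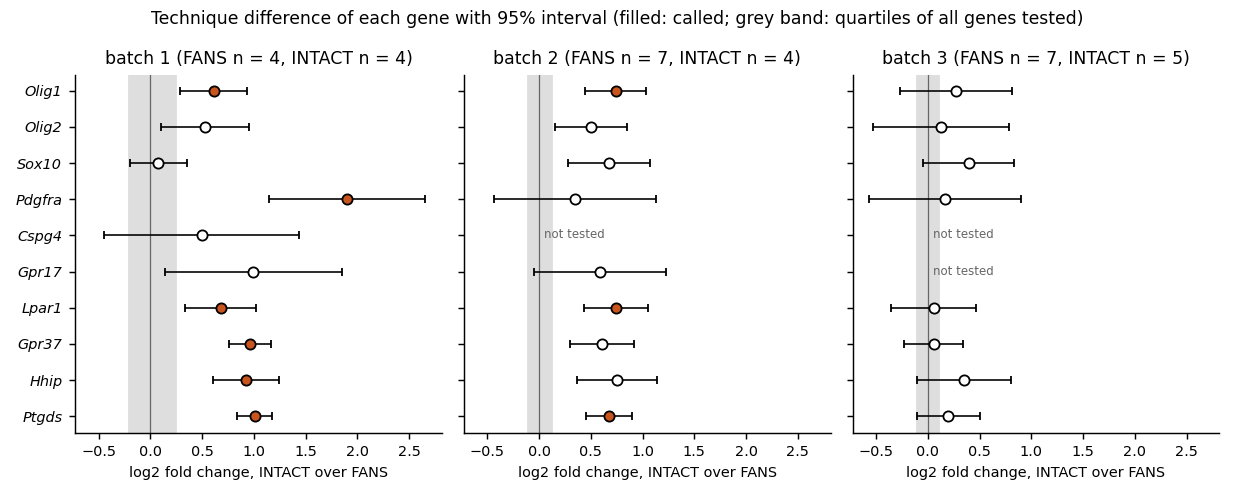
Log2 fold change of INTACT over FANS for each of the 10 genes (x axis), in a panel per batch, with the 95% interval as a bar, filled points for called genes and a grey band for the quartiles of all genes tested. Filled points are 6 in batch 1, 3 in batch 2 and 0 in batch 3.

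The effect of technique was then compared between batches with an interaction term over the 31 libraries, for the 8 members tested in all batches. Between batches 1 and 3 the effect differed for 3 of the 8 members, beside 23.3% of the 14332 genes tested. The difference of the log2 fold changes was 0.91 ± 0.23 for Gpr37 (SE, adjusted p = 0.00297 by limma), 0.81 ± 0.21 for Ptgds (SE, adjusted p = 0.00345 by limma) and 1.74 ± 0.55 for Pdgfra (SE, adjusted p = 0.0188 by limma). In all 3 the effect was larger in batch 1. Between batches 1 and 2 it differed for 0 of the 8 members and for 6.30% of all genes, with 1 member at an unadjusted p under 0.05, Pdgfra, at 1.55 ± 0.57 (SE, adjusted p = 0.0930 by limma). Between batches 2 and 3 it differed for 0 members and for 0% of all genes by limma at the adjusted threshold, although Gpr37, Lpar1 and Ptgds had unadjusted p values of 0.0140, 0.0116 and 0.0185. The absence of calls in batch 3 beside those of batch 2 is therefore not shown to be a difference between these batches.

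The FANS libraries of batch 2 varied among themselves in some members more than in others. In replicates 1, 2, 4, 5, 6, 7 and 8, Sox10 stood at 83.4, 84.6, 95.2, 129.1, 45.3, 52.6 and 44.1. The 25 myelin and mature oligodendrocyte genes, in the same order, summed to 15702, 14170, 17258, 20069, 10880, 12360 and 12356. The libraries low in Sox10 were those with the lowest sums, and replicate 5 was highest in both. Olig2, at 30.4, 24.6, 39.6, 40.7, 23.7, 28.7 and 28.9, was also highest in replicates 4 and 5 and lowest in replicate 6. Pdgfra, at 4.91, 3.64, 2.14, 5.08, 8.23, 5.74 and 10.2, and Olig1, at 56.9, 43.7, 44.9, 76.2, 66.9, 49.8 and 61.1, had other orders. Reads on genes were 5729449 to 7292908 and the share of reads outside genes 79.4 to 81.6% over these 7 libraries.

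Over all 31 libraries, after the mean of each batch and technique was taken out of log2(normalized count + 1), members differed in how closely they followed the summed myelin genes. These correlations are a description, since libraries of a batch share their source, their size factors and the counts of the sum. Gpr37 followed the sum most closely with a Pearson r of 0.87 and a Spearman rho of 0.85, and r was 0.80 without the 2 libraries farthest from the median sum. Ptgds came next with r = 0.74 and rho = 0.67, and r was 0.65 without those 2 libraries. Sox10 (r = 0.63, rho = 0.43), Hhip (r = 0.62, rho = 0.56) and Lpar1 (r = 0.50, rho = 0.50) were intermediate, with r = 0.44, 0.48 and 0.40 without them. Olig1 had r = 0.34 (rho = 0.36) and Olig2 r = 0.29 (rho = 0.26), and r was 0.38 and 0.16 without them. The precursor receptors Gpr17 and Pdgfra had r = 0.050 (rho = 0.036) and r = -0.088 (rho = -0.013), and Cspg4 had r = 0.36 (rho = 0.33), with r = 0.11, 0.0021 and 0.31 without them.

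**Figure D3:**
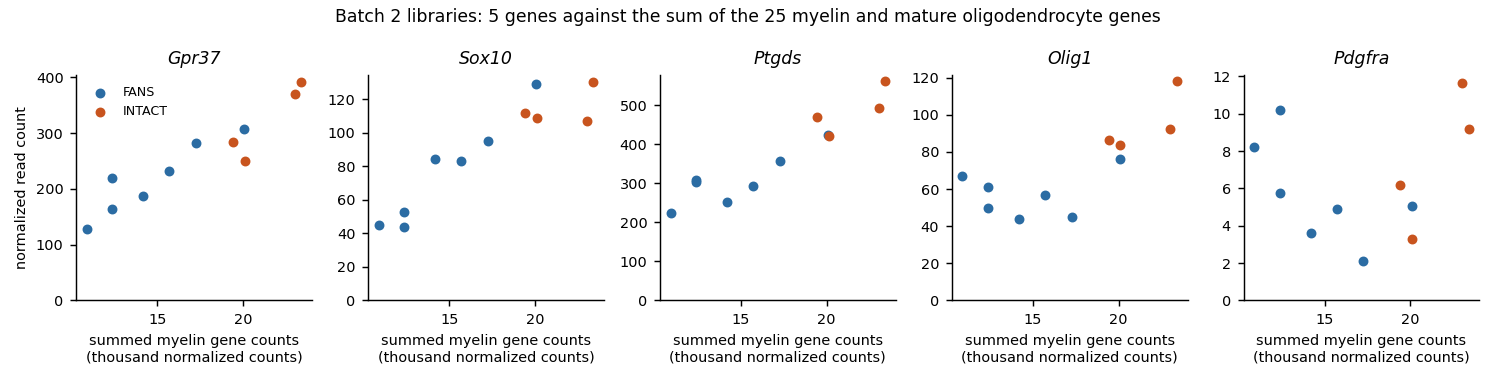
Normalized counts of Gpr37, Sox10, Ptgds, Olig1 and Pdgfra (y axis, from 0) against the summed normalized counts of 25 myelin and mature oligodendrocyte genes (x axis) in the 7 FANS (blue) and 4 INTACT (orange) libraries of batch 2. Sox10 and Gpr37 increase with the sum across the FANS libraries, whereas Olig1 and Pdgfra do not.

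The genes most like Olig1 across the libraries were then listed by the same residual measure, among 9609 other genes with a mean of at least 50 in every batch. They were Irs2 (r = 0.78), Parm1 (r = 0.78), Bcl2l13 (r = 0.77), Galnt9 (r = 0.75) and Rabac1 (r = 0.73), each over 31 libraries. Members had been left out of the search. No gene of the myelin list was among these 5, but 5 of 9609 genes are too few to show how Olig1 relates to that list.

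To place the members within the lineage, 22 other genes of precursors and of the lineage were counted, a list chosen with earlier results of these data known. Of these, 19 were tested in batch 1, and 0 were called by limma in either direction, with 13 positive and a median log2 fold change of 0.087. In batch 2, 19 were tested and 0 called (15 positive, median 0.20), and in batch 3, 17 were tested and 0 called (11 positive, median 0.031). At an unadjusted p under 0.05 by limma there were 7, 6 and 1 of them in batches 1, 2 and 3, and edgeR and DESeq2 called 0 in each batch. The most abundant of them, Tnr, which encodes the extracellular matrix protein tenascin-R, had 1078.2 ± 39.3 in FANS and 1012.5 ± 48.0 in INTACT of batch 1 (SD, n = 4 each). Myt1, a zinc finger factor of neural progenitors, had 402.1 ± 7.09 in FANS and 349.1 ± 10.9 in INTACT (log2 fold change -0.20 ± 0.07, SE, adjusted p = 0.0170 by limma, below the 1.5-fold limit). Gjc3, a connexin of glia, had 308.9 ± 39.9 and 368.1 ± 26.7. Neurons express Tnr and Myt1 as well, so the list is not specific for the lineage.

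The 25 myelin and mature oligodendrocyte genes were counted in the same way. In batch 1, 13 of the 24 tested rose in INTACT, 0 fell and all 24 were positive, with a median of 0.60. The largest called changes were in Mal (1.07 ± 0.10, SE) and Cldn11 (0.89 ± 0.10, SE), a myelin proteolipid and the claudin of myelin tight junctions. Mbp, myelin basic protein, stood at 1603 ± 122.1 in FANS and 1630 ± 125.1 in INTACT (SD, n = 4 each). In batch 2, 5 of 25 rose, among them Cldn11 and Mal, 0 fell and the median was 0.44. There 21 of 25 had an unadjusted p under 0.05 by limma, and edgeR and DESeq2 called 3 each. In batch 3, 0 of 24 were called by limma, edgeR or DESeq2, 5 had an unadjusted p under 0.05 by limma and the median was 0.23.

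Markers of other cells were measured beside the members. Astrocyte markers rose in 9 of 14 in batch 1, where their sum went from 725.0 to 878.5 in FANS to 1497 to 1551 in INTACT, with Gja1, the astrocyte connexin 43, at a log2 fold change of 2.07 ± 0.24 (SE, adjusted p = 2.29e-07 by limma). In batch 2 they rose in 1 of 12 (Slc1a3, a glutamate transporter of astrocytes), with sums of 585.8 to 828.9 and 792.3 to 1038, while edgeR and DESeq2 called 2 each and 6 had an unadjusted p under 0.05 by limma. In batch 3, 0 of 13 were called by any of the 3 tools, with 1 at an unadjusted p under 0.05. Excitatory neuron markers were called in 0 of 11 in each batch by limma, edgeR and DESeq2, with 9, 4 and 5 at an unadjusted p under 0.05 by limma. Their summed counts had an INTACT over FANS ratio of 0.967, 1.03 and 0.989 in batches 1, 2 and 3. Inhibitory neuron markers were called higher in 4 and lower in 1 of 9 in batch 1, and in 0 in batches 2 and 3. Microglia markers were called higher in 1 and lower in 1 of 7 in batch 1, and endothelial and mural markers higher in 2 and lower in 2 of 5, both with 0 in the other batches. In those batches edgeR and DESeq2 called 0 markers of these last 3 lists as well, and unadjusted p values under 0.05 were found for 1 inhibitory and 1 microglia marker of batch 3 and for none of batch 2. No marker of these lists was at 0 in all libraries of a batch except Kcnj8, a pericyte channel, in batch 2. The depth of the libraries and the share of reads outside genes moved with technique in batch 1 as well, at 79.4 to 81.7% in FANS and 71.3 to 72.7% in INTACT. The share outside genes was apart in batch 2 as well, with 79.4 to 81.6% for FANS and 77.4 to 78.9% for INTACT, and overlapped in batch 3. The part of any of these in the members' differences was not tested.

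The same lists were summed per library and compared by two-sided exact permutation tests within a batch. The myelin sum had a p of 0.0286 in batch 1, the smallest that 4 against 4 libraries allow, 0.0121 in batch 2 and 0.182 in batch 3. After adjustment over the 8 lists these were 0.0762, 0.0404 and 0.522. The astrocyte sum had p values of 0.0286, 0.00606 and 0.499 (adjusted 0.0762, 0.0404 and 0.612), with ratios of 1.85, 1.30 and 0.934. The sum of leptomeninges and choroid plexus had 0.0286, 0.0212 and 0.0492 (adjusted 0.0762, 0.0424 and 0.394), and its ratio of INTACT over FANS was 1.56 and 1.40 in batches 1 and 2 but 0.742 in batch 3. In batch 2 this sum went from a mean of 64.3 to 89.9, and Ttr alone from 4.86 to 29.3, so that the sum does not describe the other genes of the list. The sums of the other 4 lists, of neurons, microglia and vessels, had p values of 0.0571 to 0.914. For the other precursor and lineage genes p was 0.800, 0.0152 and 0.659, with ratios of 1.01, 1.09 and 0.986, and after the same adjustment it was 0.914, 0.0404 and 0.659. The sums of the members themselves had ratios of 1.76, 1.55 and 1.12.

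**Figure D4:**
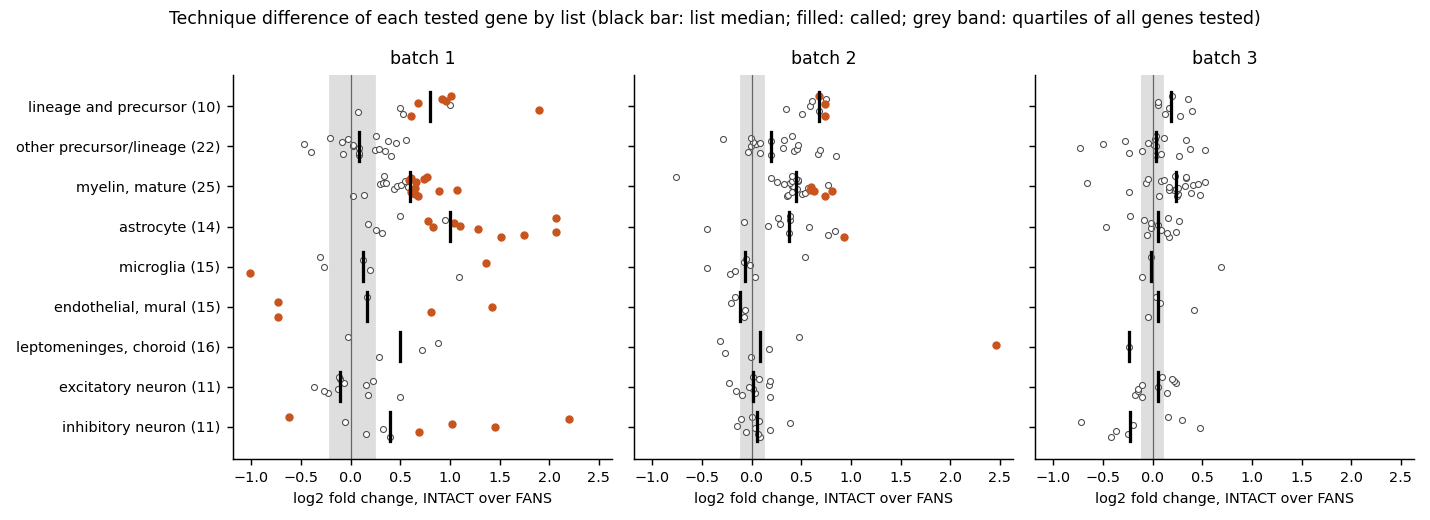
Log2 fold change of INTACT over FANS (x axis) of every tested gene of the members and of 8 marker lists (rows, with the number of genes written), in a panel per batch, with filled points for called genes, black bars for list medians and a grey band for the quartiles of all genes tested. The bar of the members stands at 0.80, 0.67 and 0.18 and that of the other precursor and lineage genes at 0.087, 0.20 and 0.031.

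Levels between batches were compared only as CPM, reads scaled to the same total of reads on genes, since each batch was normalized separately, and without a test, because batch, biological source and RNA integrity cannot be told apart. The summed members were at 83.8, 138.8 and 46.3 CPM in the FANS libraries of batches 1, 2 and 3 and at 150.5, 213.7 and 51.5 in INTACT. In INTACT, 7 of the 8 members tested in all batches had every library of batch 3 below every library of batches 1 and 2, which held for 10.0% of the 14332 genes tested in all batches. In FANS 3 of these 8 members did, beside 2.88% of these genes. Ptgds in INTACT went from 51.5 and 78.1 CPM in batches 1 and 2 to 17.04 in batch 3, and Gpr37 from 40.7 and 51.9 to 11.4. Pdgfra did not follow, with 2.33, 1.21 and 1.23 in INTACT and 0.557, 0.918 and 1.05 in FANS. The excitatory markers summed to 1655, 1843 and 1904 CPM in INTACT and thus were not lower in batch 3, whereas the myelin genes summed to 2245, 3444 and 830.5.

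Open chromatin was measured by ATAC-seq on 50000 nuclei per library by the labels, although another passage of the study's methods gives fewer, with 3 FANS and 3 INTACT libraries that are technical replicates of a single biological source. Peaks called by the authors in each library were counted within 3 kb of the start sites of curated transcripts, and their height is the fold enrichment over local background at the summit. Of the 10 members, 9 had a peak in all 6 libraries, and Cspg4 had 0 peaks in each. Of all 26180 genes with a curated start site, 60.1% had a peak in all 6 libraries. The lists hold only peaks above the authors' threshold, so no peak near Cspg4 means none above it.

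Peaks lay over the start sites of Olig1, Olig2, Lpar1, Gpr37, Hhip and Ptgds in every library. For Gpr37 the peak of FANS replicate 1 spanned chr6:25689008-25690648 with its summit at -2 bases. Around Sox10 there were 2 upstream peaks with their summits at -1278 to -1319 and at -2325 to -2468 bases relative to the start, and in every library except INTACT replicate 2 a low peak over the start itself. An annotated start site of Gm10863 on the other strand lies between the summits of the upstream pair. At Pdgfra the highest peak had its summit 187 to 868 bases downstream of the nearest of its 3 start sites, the most downstream one, which the peak covered in INTACT replicate 1 alone. FANS replicate 2 had a second, low peak with its summit 1501 bases downstream of another start site. The highest peak near Gpr17 had its summit 2937 to 2958 bases downstream of the start, and a lower peak had its summit at -559 to -609 bases.

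Heights lay below the median gene at 8 of the 9 members. The median height over the 15747 genes with a peak in all 6 libraries was 13.1-fold, and the share of these genes that lay lower was 51.9% for Olig1, 44.2% for Gpr37 and 39.4% for Gpr17. For Gpr17 this rests on the downstream peak, and within 1 kb its mean height was 4.81 in FANS and 4.56 in INTACT, beside 12.1 and 10.7 within 3 kb. Lpar1 (29.4%), Pdgfra (27.5%), Ptgds (23.6%) and Olig2 (16.9%) stood lower. Hhip (6.70%) and Sox10 (2.48%) were among the lowest. Sox10 was the third in RNA per kilobase in batch 1, but that place is among the 10 members and not among all genes.

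INTACT peaks were mostly lower than FANS peaks at these genes and elsewhere. At Olig1 the highest fold enrichment was 15.4, 14.3 and 15.4 in FANS and 11.6, 9.68 and 13.7 in INTACT. At Ptgds it was 9.91, 9.31 and 10.5 in FANS and 8.40, 7.52 and 8.03 in INTACT. At Gpr37 it was 12.5, 12.2 and 13.8 in FANS and 11.49, 11.0 and 11.9 in INTACT. The groups did not overlap at these genes, nor at Sox10 and Hhip, so that every INTACT library lay below every FANS library in 5 members, which held for 51.2% of the 18657 genes with a peak in any library. At Sox10 this order was lost with peaks within 1 kb, where the heights were 2.98, 4.17 and 3.89 in FANS and 3.45 and 4.58 in INTACT replicates 1 and 3, and INTACT replicate 2 had no peak (exact permutation p = 0.7). The opposite order held for 0 members and for 2.24% of these genes. An exact permutation test of 3 against 3 libraries gave p = 0.1 for each of the 5, the smallest it can give, so no call was possible.

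At Olig2 the heights were 7.96, 8.80 and 6.95 in FANS and 6.12, 9.99 and 7.10 in INTACT, which overlapped (exact permutation p = 1.0). Pdgfra, Gpr17 and Lpar1 overlapped as well (exact permutation p = 0.2, 0.3 and 0.4). The ratio of INTACT over FANS ranged from 0.777 at Olig1 to 0.979 at Olig2, with a median of 0.806 over the 9 members and of 0.856 over all genes with a peak in all 6 libraries (quartiles 0.783 and 0.920). In batch 1 of the RNA-seq Olig1, Gpr37, Hhip and Ptgds had risen in INTACT, whereas their peaks were lower in every INTACT library than in every FANS library. That full separation held for 51.2% of the genes with a peak in any library. A lower mean height in INTACT was more common still, since even the upper quartile of the ratio was 0.920. The depth of the ATAC-seq libraries is unknown, so the precision of a height cannot be given.

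**Figure D5:**
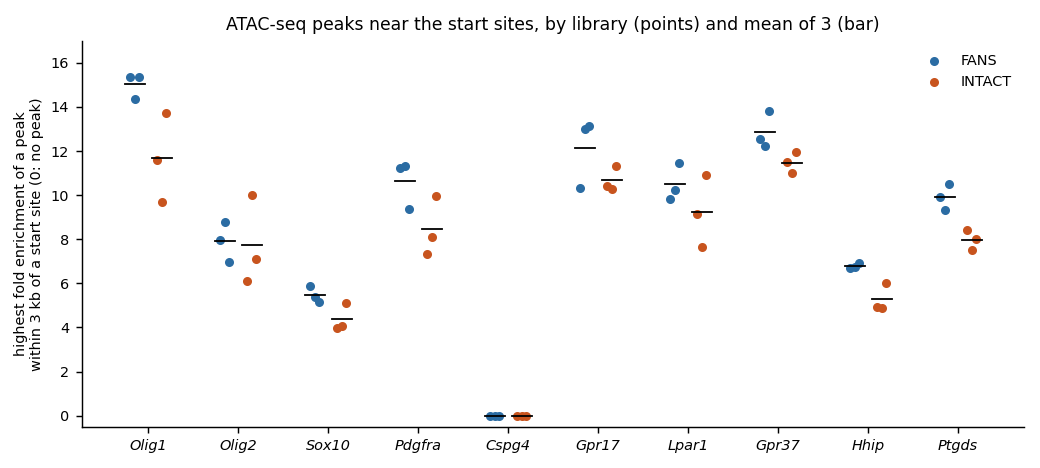
Highest fold enrichment over local background (y axis, from 0) of the peaks within 3 kb of a start site, for each member (x axis) in 3 FANS (blue) and 3 INTACT (orange) ATAC-seq libraries. The INTACT points lie below all FANS points at Olig1, Sox10, Gpr37, Hhip and Ptgds, and Cspg4 has no peak.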

How the data were processed

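FANS or INTACT nuclei of the neocortex were measured by nuclear RNA-seq (31 libraries in 3 batches) and ATAC-seq (6 libraries). Groups were taken from the sample labels and batches from the tables. Of the libraries labelled in batch 2, replicate 3 of FANS and replicate 5 of INTACT were not analysed here. The 10 members and all gene lists were chosen with earlier results of these data known.

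The authors aligned the RNA-seq reads to mm10 with STAR, removed duplicates by molecular identifiers and counted with HTSeq. The deposited values are normalized counts, a signal that the authors obtained by dividing the reads of a gene by the DESeq size factor of its library. Of the values checked, 100% gave whole reads, within 0.1 read, once divided by the worth of 1 read. Zeros and the highest values were left out of this check. Tool names are also given in the submitters' processing notes. Whether counting used strand was not given in the sources used here. The tables held 24421 genes beside 5 summary rows that entered no total and no test. The row for reads outside features held 71.3 to 85.1% of reads. For ATAC-seq the authors aligned with Bowtie2, marked duplicates with Picard and ran MACS2 on every library separately. The deposited lists give a score, the fold enrichment at the summit, which was used as the height, and, both as -log10, a p-value and a q-value, the latter of which served as a filter in an alternative. The parameters of the peak calling and a read shift were not given in the sources used here. The lists held 99514 to 130088 peaks.

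Techniques were compared within a batch with limma 3.58.1 in R 4.3.3 (lmFit and eBayes with trend) on log2(normalized count + 1), for genes with a mean of at least 5. Log2 fold changes are on this scale, where the pseudocount draws those of low genes toward 0 and a single low library weighs more than in a ratio of means. Calls needed a Benjamini-Hochberg adjusted p under 0.05 over all genes tested and a 1.5-fold change. The interaction of batch and technique was fitted over all libraries. Whole reads were tested with edgeR 4.0.16 and DESeq2 1.42.0 as alternatives. Scripts were tested on simulated data. Intervals are 95%, at 1.96 SE. Single values were compared by two-sided exact permutation tests, with smallest p values of 0.0286, 0.00303 and 0.00126 in batches 1 to 3 and 0.1 for ATAC-seq. Other alternatives were a pseudocount of 5, a minimum mean of 20 or none, scaling by the 75th percentile, a replicate block, leaving out each library, a window of 1 kb, a -log10 q of at least 5, summits inside the window and all annotated start sites.

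Gene names beside the members were limited by rule to, from each list, the 3 most abundant genes, every gene called in batch 2 or 3 and the 5 largest calls of batch 1, and the 5 genes most like Olig1. Where a count of calls is 5 or fewer its genes may be named. Not every gene chosen in this way is reported here. Reads per library limit the precision, and after removal of duplicates reads stand for molecules. Each batch is a distinct biological source, so the spread within a batch, and p-values that rest on it, may not include variation between animals. No 2 libraries agreed within sampling noise (chi-square per gene 1.78 to 16.3 over 70 pairs).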

Additional observations from a re-analysis of the deposited data

Results flagged for a closer look

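In the FANS libraries of batch 3, replicate 5 stood apart for Hhip, with a normalized count of 33.55 beside a next highest value of 18.47 and a lowest of 13.81. It was the single such library in 60 groups of 4 to 7 libraries, and chance alone gives about 1 in 20 groups. The effect of technique differed between batches 1 and 3 in 3 members by the interaction term of limma over 31 libraries. The difference of the log2 fold changes was 0.91 for Gpr37 (adjusted p = 0.00297), 1.74 for Pdgfra (adjusted p = 0.0188) and 0.81 for Ptgds (adjusted p = 0.00345), and the effect was larger in batch 1 in all 3.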

How the results depend on the processing

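In batch 1 the median log2 fold change of the members was 0.68 with a minimum mean of 20 (7 members tested), 0.65 with a pseudocount of 5, and 0.62 to 0.91 with a library left out, where 4 to 8 members were called. In batch 2 the count of 3 became 5 with a pseudocount of 5, where Gpr37 and Hhip passed, and 1 to 6 with a library left out. In batch 3 it was 0 throughout. Replicate numbers were not shown to pair the libraries, with correlations of same-numbered deviations of -0.070 to 0.11. In batch 3, though, FANS and INTACT replicate 2 were each other's best match, as were FANS and INTACT replicate 5 (correlations 0.11 and 0.029). With a replicate block, 0 members were called in batch 2, where only 3 pairs of numbers are shared, although Olig1, Lpar1 and Ptgds had log2 fold changes of 0.99, 0.87 and 0.71 (adjusted p = 0.0754, 0.142 and 0.0629 by limma), and 6 in batch 1. In batch 3 the block turned Lpar1 to -0.074 and Gpr37 to -0.028. Leaving out a library gave -0.018 to 0.21 for Sox10 and -0.018 to 0.83 for Cspg4 in batch 1, and in batch 3 -0.13 to 0.29 for Olig2, -0.049 to 0.35 for Pdgfra, -0.075 to 0.16 for Lpar1 and -0.0061 to 0.13 for Gpr37. Ratios of summed lists crossed 1 for other precursor genes (0.988 to 1.03 in batch 1, 0.972 to 1.00 in batch 3), microglia in batch 1 (0.968 to 1.07) and inhibitory neurons in batch 2 (0.984 to 1.07). The cause was not tested. Without any filter Lpar1 lost its call in batch 2 (adjusted p = 0.0547 by limma), which over all alternatives had adjusted p values of 0.00344 to 0.142. At 1 kb the difference of INTACT from FANS in peak height at Gpr17 was -0.26, and Sox10 had a peak in 5 of 6 libraries with groups that overlapped. Pdgfra and Cspg4 rest on few reads, and the depth of the ATAC-seq libraries is unknown.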
